A study of Zea mays with 6 samples.

Results

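The oil-body-associated protein (OBAP) genes OBAP1A, OBAP2A and OBAP2B were examined in maize endosperm, the kernel tissue that stores starch and protein. They are the genes to which the deposited table gives those names, 3 of 36781 genes and 4 of 86771 transcripts. All 3 passed the filter for testing, which kept the 15858 genes that reached 1 FPKM in 3 or more libraries. FPKM counts sequenced fragments relative to transcript length and library total, so levels of different genes can be compared on it.

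Messenger RNA of endosperm at 12 days after pollination was sequenced from 3 wild-type (WT) libraries and 3 libraries of the mutant carrying the smk8-ref allele. The labels call the libraries biological repeats and name no ears or plants of origin, so the p-values rest on variation among libraries that may be partly technical. The time is that of the time label, and the sample titles begin with a number that the labels do not explain. The inbred background of either genotype is not given in the labels, and the level of the gene affected in smk8-ref was not analysed here. Between 14350 and 15312 genes reached 1 FPKM in the WT libraries, fewest in WT replicate 1, and between 15625 and 15988 in the smk8-ref libraries. The comparison asks how the OBAP genes differ between mutant and WT endosperm.

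Seed oil is held in oil bodies, droplets of triacylglycerol enclosed by a single layer of phospholipid that carries proteins such as oleosins. OBAP proteins are a plant family associated with these droplets, and in Arabidopsis loss of an OBAP1 gene gives misshapen oil bodies and less seed oil. In the maize kernel oil bodies are abundant in the embryo, above all in its scutellum, and in the aleurone, the outer layer of the endosperm, and are sparse in the starchy endosperm.

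Mean levels of all 3 OBAP genes were higher in smk8-ref than in WT endosperm, by between 1.79-fold and 2.18-fold, and none of the differences passed the test over all genes. WT replicate 3 carried OBAP levels far above those of the other WT libraries. Without that library all 3 genes passed, as did 5.58% of all tested genes in the same direction. Without any other single library none of the 3 did. That WT replicate 3 differed was known when these genes were chosen, so passing without it is not support for a difference. The ratio of the highest to the lowest library was smaller for each gene in smk8-ref (1.53 to 1.59) than in WT (2.35 to 7.69).

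OBAP1A, the member of the OBAP1 subfamily, lies on the minus strand of chromosome 4 from 159425350 to 159426505 (Zm00001d051459; coordinates as in the deposited table, with a genome build that no source used here names). Its level was 5.54, 7.09 and 19.9 FPKM in WT replicates 1 to 3 and 24.7, 15.6 and 20.0 FPKM in smk8-ref replicates 1 to 3. WT replicates 1 and 2 were low, WT replicate 3 lay inside the smk8-ref range, and the groups overlapped. The means were 10.8 ± 7.86 FPKM in WT and 20.1 ± 4.55 in smk8-ref (SD, n = 3 each). The log2 change, smk8-ref minus WT on log2(FPKM + 1), was 1.01 ± 0.43 (SE, 95% confidence interval 0.00025 to 2.01), with an adjusted p of 0.18 in limma.

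OBAP2A, a member of the OBAP2 subfamily, lies on the minus strand of chromosome 3 from 200802506 to 200803772 (Zm00001d043464). Its level was 12.0, 10.0 and 23.6 FPKM in WT replicates 1 to 3 and 41.7, 26.3 and 31.3 FPKM in smk8-ref replicates 1 to 3. Every smk8-ref library stood above every WT library, with a gap of a few FPKM between WT replicate 3 and smk8-ref replicate 2. The means were 15.2 ± 7.32 FPKM in WT and 33.1 ± 7.86 in smk8-ref (SD, n = 3 each). The log2 change was 1.14 ± 0.32 (SE, 95% confidence interval 0.38 to 1.89), with an adjusted p of 0.077 in limma.

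OBAP2B, the other OBAP2 gene named in the table, lies on the minus strand of chromosome 8 from 160797624 to 160798695 (Zm00001d011755). Its level was 3.06, 8.23 and 23.6 FPKM in WT replicates 1 to 3 and 21.5, 16.2 and 24.7 FPKM in smk8-ref replicates 1 to 3. The WT libraries ran from well below the smk8-ref range to near its top, and the groups overlapped. The means were 11.6 ± 10.7 FPKM in WT and 20.8 ± 4.31 in smk8-ref (SD, n = 3 each). The log2 change was 1.15 ± 0.59 (SE, 95% confidence interval -0.25 to 2.54), with an adjusted p of 0.25 in limma.

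**Figure D1:**
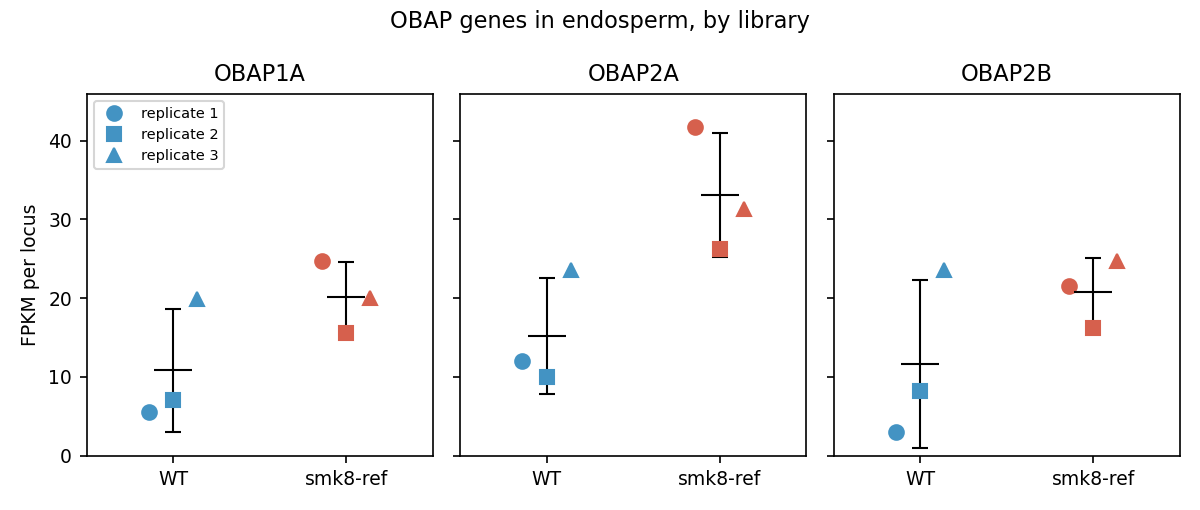
Level of each OBAP gene in FPKM per locus (y axis, linear, from 0) in WT and smk8-ref endosperm, with 1 point per library, the symbol giving the replicate number, and a horizontal bar with whiskers for the mean and SD (n = 3). WT replicate 3, the blue triangle, stands at 19.9, 23.6 and 23.6 FPKM, inside the smk8-ref range for OBAP1A and OBAP2B and just below it for OBAP2A.

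Among all 15858 genes tested, 3.39% passed the adjusted threshold of 0.05 as higher in smk8-ref and 7.6% passed in either direction, while 0 of the 3 OBAP genes did. In limma the p before adjustment was 0.04996 for OBAP1A, 0.0091 for OBAP2A and 0.094 for OBAP2B, and it was under 0.05 for 4492 of all tested genes. In the exact two-sided permutation test over the 6 libraries, p was 0.20 for OBAP1A, 0.10 for OBAP2A and 0.30 for OBAP2B, and 3 libraries against 3 cannot give less than 0.10. Non-overlapping groups with smk8-ref higher were found for 1 of the 3 OBAP genes and for 18.7% of all tested genes.

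The size of the difference set the OBAP genes toward the upper end of the tested genes, although the tests were not passed. The median log2 change of all tested genes was 0.05, and 55.5% had a higher mean in smk8-ref. A log2 change at least as high as that of OBAP1A was found in 3.68% of tested genes, for OBAP2A in 2.67% and for OBAP2B in 2.60%. The genes were chosen with earlier results of these data known, so these shares are a description and not a test.

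**Figure D2:**
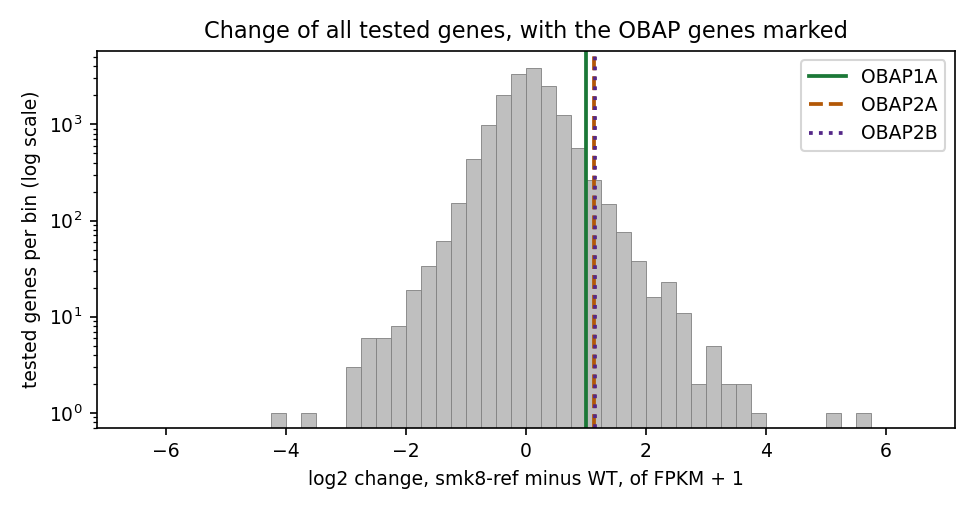
Histogram of the log2 change, smk8-ref minus WT on log2(FPKM + 1), of the 15858 tested genes (x axis), with the number of genes per bin on a log scale (y axis) and a vertical line for each OBAP gene. The lines stand at 1.01 for OBAP1A, 1.14 for OBAP2A and 1.15 for OBAP2B, on the upper shoulder of the distribution.

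WT replicate 3 was the highest WT library for 3 of the 3 OBAP genes and for 46.1% of all tested genes. It lay within the smk8-ref range for OBAP1A and OBAP2B, as it did for 31.7% of all tested genes. On log2(FPKM + 1), the SD across WT libraries was 0.89 for OBAP1A, 0.61 for OBAP2A and 1.30 for OBAP2B, against a median of 0.22 over all tested genes. Of the tested genes, 1.18% had a WT SD as large as that of OBAP2B, 3.29% as large as that of OBAP1A and 8.72% as large as that of OBAP2A. That WT replicate 3 differed was known when these genes were chosen, so these shares are a description and not a test. Across smk8-ref libraries the SD was between 0.30 and 0.33 for the 3 genes, against a median of 0.18.

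Leaving out WT replicate 3 moved all 3 genes past the threshold in limma, where 5.58% of all tested genes passed as higher in smk8-ref. OBAP1A was then higher by a log2 change of 1.51 ± 0.22 (SE, adjusted p = 0.028), OBAP2A by 1.48 ± 0.21 (adjusted p = 0.028) and OBAP2B by 1.81 ± 0.37 (adjusted p = 0.042). With only 2 WT libraries left, their spread was pooled with that of smk8-ref. The high OBAP levels of WT replicate 3 were known beforehand. Leaving it out raises the change and narrows the spread, so these p-values describe its weight and are not support. None of the 3 passed when any other single library was left out, where the share of tested genes passing as higher was 0.132% without WT replicate 1, 0.908% without WT replicate 2, and 0.139%, 0.082% and 0.549% without smk8-ref replicates 1, 2 and 3. WT replicate 1 weighed most in the other direction on OBAP2B, whose log2 change was 0.52 without it (95% confidence interval -0.50 to 1.53, adjusted p = 0.51 in limma).

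**Figure D3:**
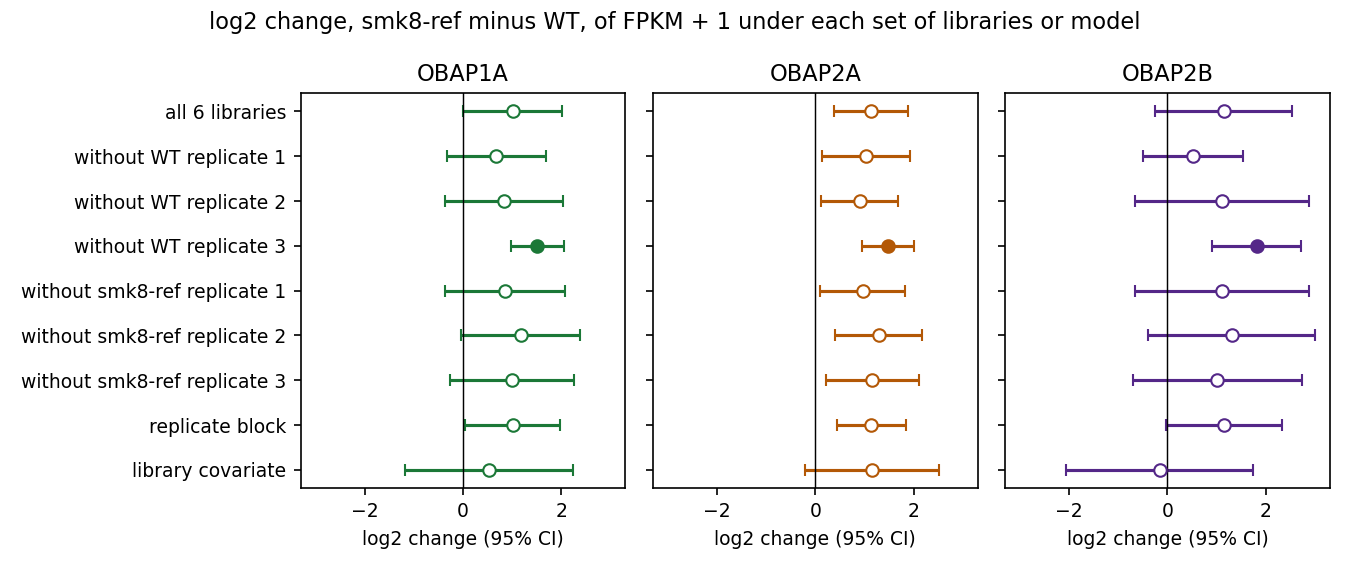
Log2 change of each OBAP gene, smk8-ref minus WT on log2(FPKM + 1) (x axis), with its 95% confidence interval, for all 6 libraries, with each library left out, with the replicate number as a block and with the library covariate of the authors' comparison (y axis). Filled points are past an adjusted p of 0.05, which was reached only without WT replicate 3, at 1.51, 1.48 and 1.81.

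OBAP2A had the highest level of the 3 genes in every library, although in WT replicate 3 it stood at 23.6 FPKM, equal at this precision to OBAP2B. OBAP1A and OBAP2B changed places among libraries, with OBAP1A the higher in WT replicate 1 and smk8-ref replicate 1 and OBAP2B the higher in the other libraries. Their mean levels in WT, 10.8 and 11.6 FPKM, and in smk8-ref, 20.1 and 20.8 FPKM, differed by less than 1 SD. The mean of OBAP2A exceeded that of OBAP2B by less than 1 SD in WT and by more than 1 SD in smk8-ref.

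The FPKM of OBAP2A was 3.92, 1.22 and 1.0 times that of OBAP2B in WT replicates 1 to 3 and 1.94, 1.62 and 1.27 times in smk8-ref replicates 1 to 3. The mean log2 ratio was 0.65 ± 0.90 in WT and 0.64 ± 0.30 in smk8-ref (SD, n = 3 each, exact two-sided permutation p = 1.0). The ratio was thus far more uneven in WT, where WT replicate 1 gave the highest value and WT replicate 3 the lowest. The level of OBAP1A was 0.460, 0.707 and 0.842 times that of OBAP2A in WT replicates 1 to 3 and 0.592, 0.593 and 0.639 times in smk8-ref replicates 1 to 3. The mean log2 ratio was -0.56 ± 0.39 in WT and -0.69 ± 0.06 in smk8-ref (SD, n = 3 each, exact two-sided permutation p = 0.60). Adjusted over these 2 ratios both p-values were 1.0 in the exact test, and with 3 libraries a group neither test can show that the genes changed alike. How similar OBAP2A and OBAP2B are in sequence, and whether reads were divided between them, was not analysed here.

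OBAP1A is listed with 2 transcripts whose spans nearly coincide, while OBAP2A and OBAP2B are listed with 1 each. The first OBAP1A transcript held between 90.6% and 100% of the gene's FPKM in every library. The second stood in WT replicates 1 to 3 at 0, 0.666 and 1.17 FPKM and in the smk8-ref replicates, in the same order, at 0.994, 1.27 and 0 FPKM. It was listed at 0 in 1 library of each genotype, and the difference between genotypes described above rests on the first transcript.

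The authors' own comparison has the opposite sign to the FPKM means for OBAP2B and for the second, low OBAP1A transcript. The authors' deposited table gives log2 fold changes of 1.15 for OBAP2A, 0.61 and -0.36 for the first and second OBAP1A transcripts, and -0.16 for OBAP2B. In the authors' deposited table OBAP2A is marked up, as are 2.53% of all transcripts, and the other OBAP transcripts are marked as unchanged. The q-values in the authors' deposited table are 0.877 for OBAP2A and between 0.940 and 0.985 for the others, so none is past 0.05 there.

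A linear fit with 1 added term per library returned the authors' log2 fold changes for all 86771 transcripts to within 1.4e-06 and the p-values to within 4.4e-07. The term was the sum of log2(FPKM + 1) over transcripts below the 75th percentile of values above 0. It was 17070, 19987 and 19679 in WT replicates 1 to 3 and 20599, 21956 and 22118 in smk8-ref replicates 1 to 3, so it was higher in every smk8-ref library than in any WT library. The term and the genotype thus overlap in these libraries, and their parts in the OBAP levels cannot be told apart. Without the term the same fit gave a log2 change of 1.15 for OBAP2B in place of -0.16, 1.02 for the first OBAP1A transcript in place of 0.61, 0.11 for the second in place of -0.36, and 1.14 for OBAP2A in place of 1.15. Of 23076 transcripts at 1 FPKM or more in at least 3 libraries, 21.9% had opposite signs with and without it.

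With that term in limma, the log2 change per gene was 0.52 for OBAP1A (95% confidence interval -1.19 to 2.23, adjusted p = 0.79), 1.15 for OBAP2A (-0.21 to 2.51, adjusted p = 0.43) and -0.16 for OBAP2B (-2.06 to 1.74, adjusted p = 0.95). The estimate for OBAP2A kept its size, that for OBAP2B fell below 0, and the intervals of all 3 genes widened. The OBAP2B interval still held the 1.15 found without the term. Of all tested genes, 6 (0.0378%) passed. WT replicate 1 was the library with the lowest term and the lowest level of OBAP1A and OBAP2B, but not of OBAP2A.

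**Figure D4:**
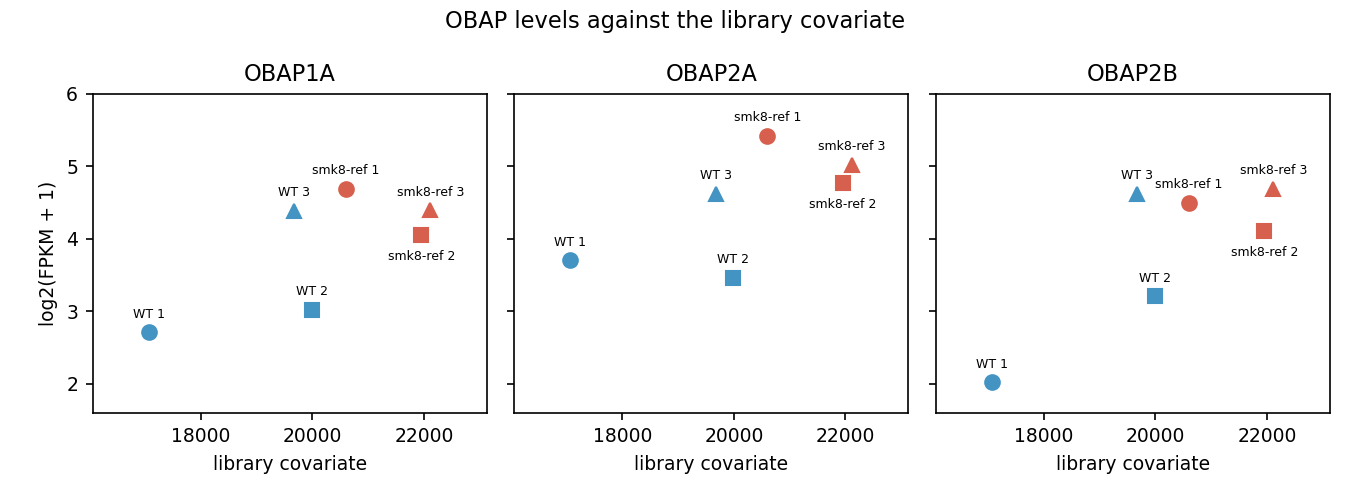
Level of each OBAP gene as log2(FPKM + 1) (y axis) against the library covariate of the authors' comparison, the sum of log2(FPKM + 1) over transcripts below the 75th percentile (x axis), with WT libraries in blue and smk8-ref libraries in red. WT replicate 1 stands alone at the low end of the covariate with the lowest OBAP1A and OBAP2B levels, while WT replicates 2 and 3 are close in the covariate (19987 and 19679) and far apart in OBAP level.

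Likeness in pattern between the 3 genes was measured as the root mean square difference over the 6 libraries of log2(FPKM + 1) after each gene was centred on its own mean. OBAP1A and OBAP2A differed by 0.24, OBAP1A and OBAP2B by 0.34, and OBAP2A and OBAP2B by 0.55. Among 15857 other tested genes, OBAP2A ranked 46th in likeness to OBAP1A, and OBAP2B ranked 233rd. OBAP1A ranked 70th in likeness to OBAP2A and 81st in likeness to OBAP2B. Of the tested genes, 17.9% were closer to OBAP2A than OBAP2B was, and 2.70% were closer to OBAP2B than OBAP2A was. The OBAP2 genes thus differed from each other by more than either did from OBAP1A. WT replicate 1 weighed most on this, with a log2 ratio of OBAP2A to OBAP2B of 1.68 there and at most 0.92 in the other libraries.

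Of 186 other genes with a name that were tested, the closest to OBAP1A was TIP1-1, an aquaporin of the vacuolar membrane, at a difference of 0.25. It was also second closest to OBAP2A (0.27) and to OBAP2B (0.40). TIP1-1 stood at 10.0, 15.0 and 25.0 FPKM in the WT libraries in order, against 43.8, 28.2 and 44.8 FPKM in the smk8-ref libraries, and did not pass (log2 change 1.24 ± 0.33 SE, adjusted p = 0.068 in limma). NIP1-1, an aquaporin of the nodulin-26-like class, was closest to OBAP2A (0.24), at 2.33, 1.21 and 4.66 FPKM in WT and 6.15, 6.37 and 5.42 FPKM in smk8-ref (adjusted p = 0.11 in limma). HMT-1, a homocysteine methyltransferase gene, was the third (0.33) and had passed the threshold as higher in smk8-ref (adjusted p = 0.025 in limma). For OBAP2B the closest was an H3C2 gene, for histone H3 (Zm00001d041672, 0.27), and a second H3C2 gene (Zm00001d050697) was the third (0.44). The same H3C2 genes were the third (0.35) and second (0.35) closest to OBAP1A. Histone H3 genes are near-identical, so their own levels are uncertain. With 6 libraries and many genes such likeness is a description of these libraries.

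**Figure D5:**
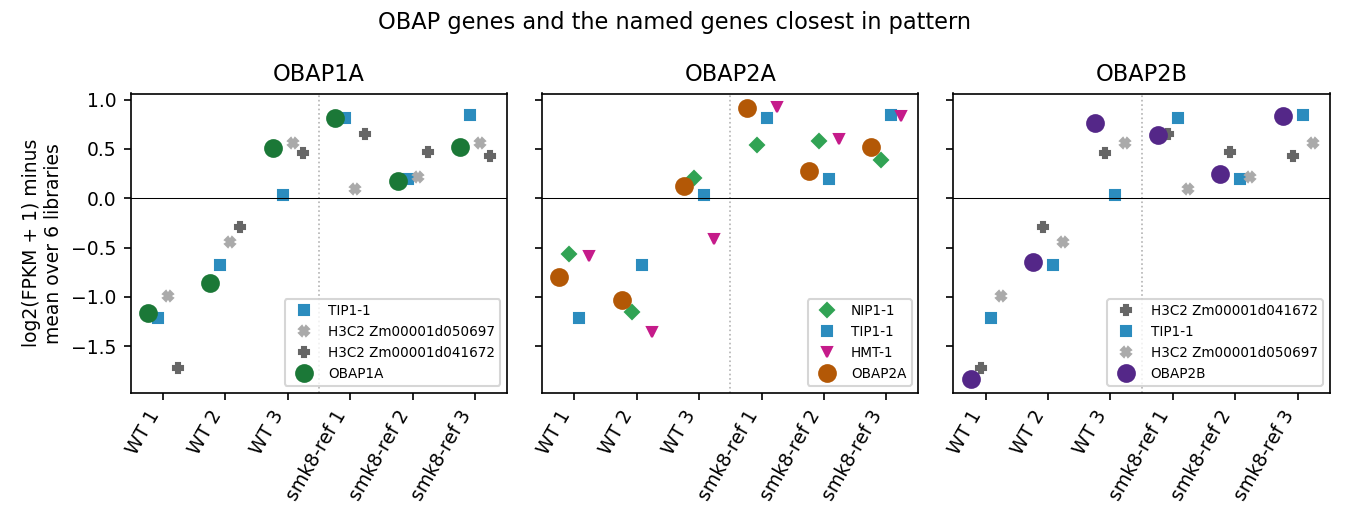
Level of each OBAP gene (large circles) and of the 3 named genes closest to it in pattern (small symbols) in each library, as log2(FPKM + 1) minus the gene's mean over 6 libraries (y axis). WT replicates 1 and 2 lie below 0 and smk8-ref libraries above it in all panels, and WT replicate 3 lies near the smk8-ref libraries in the OBAP1A and OBAP2B panels for most of the genes shown.

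Few defining markers of kernel compartments carry a name in the table, so the tissue label could be checked only in part. PPDK2, a pyruvate phosphate dikinase abundant in starchy endosperm, was the 1 of 26 names of that list that matched. It was at 2259 to 2904 FPKM in WT and 1475 to 2023 FPKM in smk8-ref. The difference did not pass (log2 change -0.57 ± 0.21 SE, adjusted p = 0.14 in limma). Of 23 embryo names 1 matched, the homeobox gene KN-1, which is expressed in the shoot meristem of the embryo. KN-1 stood, in order of replicate number, at 0.033, 0.838 and 0.993 FPKM in WT and at 1.24, 1.03 and 1.57 FPKM in smk8-ref, low in every library and lowest in WT replicate 1, as were OBAP1A and OBAP2B (adjusted p = 0.24 in limma). KN-1 reached the filter for testing only through the smk8-ref libraries, where it was higher, so its p-value is not support for a difference. Its part in the OBAP difference was not tested. Of 12 names of the embryo-surrounding region and aleurone, 3 matched (CR4, ESR1 and ESR3), with a summed level of 12.0 to 15.3 FPKM in WT and 10.1 to 18.9 FPKM in smk8-ref, where ESR1 in replicate 2 alone gave 6.76 FPKM. ESR3, which marks endosperm cells next to the embryo, was at 3.22, 3.23 and 4.68 FPKM in WT and 0.308, 1.75 and 0.837 FPKM in smk8-ref and fell past the threshold (log2 change -1.31 ± 0.29 SE, adjusted p = 0.043 in limma, and 0.074 without WT replicate 3). CR4, a receptor kinase needed for aleurone cell fate, stood at 7.42, 7.24 and 8.93 FPKM in WT and 9.24, 10.4 and 9.78 FPKM in smk8-ref (adjusted p = 0.21 in limma). ESR3 reached the filter only through the WT libraries, where it was higher, so its p-values are not support for a fall. In bulk tissue fewer cells of a type and less RNA per cell cannot be told apart. Of 33 names of oil-body and oil-synthesis genes the 3 OBAP genes matched, and oleosins and oil-synthesis enzymes were not analysed by name here.

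The OBAP genes lie on different chromosomes. Of the 5 tested genes on either side of OBAP1A, OBAP2A and OBAP2B, the median log2 change was 0.03, 0.23 and 0.05, against 0.05 for all tested genes. Around each, 0 of 10 had a log2 change as high as that of the OBAP gene, as 2.60% to 3.68% of all tested genes did. Past the threshold in limma were 1 of 10 around OBAP1A, 2 of 10 around OBAP2A and 0 of 10 around OBAP2B, against 7.6% of all tested genes. With 10 neighbours each, neither count can tell the neighbours from all tested genes or show that they are alike.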

How the data were processed

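The authors deposited 1 table with an FPKM value per transcript for 6 libraries, made per the submitters' processing notes with HISAT, a spliced aligner, and StringTie, which quantifies transcripts; no source used here gives their versions or settings, or the genome build. The same deposited table holds the authors' linear fold change (a ratio), log2 fold change, p-value and q-value. Read depth is unknown, so no counting intervals are given; FPKM sums per library were 287260 to 321002.

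FPKM was summed per locus (the identifier without its transcript suffix). Genes with at least 1 FPKM in at least 3 libraries were compared on log2(FPKM + 1), which understates changes of low genes, with limma 3.58.1 in R 4.3.3 (variance trend, two-sided, Benjamini-Hochberg over all tested genes, threshold 0.05). On simulated data for the same 15858 genes, 48 of 100 changes of 1 on the log2 scale and 90 of 100 of 2 were recovered. The changed genes were drawn at random from those with a mean log2(FPKM + 1) above 2, so recovery for lower genes was not measured. Of the genes left unchanged, 5 were called. The OBAP genes had WT SDs of 0.61 to 1.30, against a median of 0.22, so recovery for them was not measured. Exact permutation tests used scipy 1.17.1. Of the table's loci 0 matched the RefSeq gene table (Zm-B73-REFERENCE-NAM-5.0) by identifier; names are the deposited table's. Named genes are the OBAP genes, the matched marker lists and the 3 named genes closest in pattern to each. Members and lists were chosen with earlier results of these data known. Alternatives covered pseudocounts, filters, scaling, transcripts, the variance trend, a replicate block and each library left out.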

Additional observations from a re-analysis of the deposited data

How the results depend on the processing

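Under 17 alternatives each, OBAP1A and OBAP2A kept a higher mean in smk8-ref in all and OBAP2B in all but 1; each gene passed in 1, the fit without WT replicate 3. With 1 library left out the log2 change ranged from 0.68 to 1.51 for OBAP1A, from 0.91 to 1.48 for OBAP2A and from 0.52 to 1.81 for OBAP2B. The library covariate, an alternative chosen after the data were seen, turned OBAP2B to -0.16. The difference between genotypes in the log2 ratio of OBAP2A to OBAP2B, -0.0076, turned to 0.13 with a pseudocount of 5 and 0.087 with quantile normalization, and ranged from -0.33 to 0.51 with 1 library left out; that of OBAP1A to OBAP2A, -0.13, ranged from -0.35 to 0.030. The number of genes past the threshold, 1205, was 388 with no filter, 758 with quantile normalization, 620 with the most abundant transcript of each locus, 6 with the covariate, and 28 to 1425 with 1 library left out. The cause of these differences was not tested. The fit with a replicate block called 36 genes, none of them OBAP genes; deviations of same-numbered libraries correlated at 0.0069, -0.0085 and 0.083, so the numbers were not taken to pair the libraries. With 3 libraries a group and unknown depth, the precision rests on the spread between libraries.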

Other observations

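TIP3-1, an aquaporin of the seed storage vacuole chosen after its values were seen, had levels of 2.53, 6.26 and 17.1 FPKM in the WT libraries, in order of replicate number, and of 56.7, 24.0 and 34.3 FPKM in the smk8-ref libraries. As for the OBAP genes, WT replicate 3 was the highest WT library, and smk8-ref replicate 1 was the highest of all, as for OBAP1A and OBAP2A. Its log2 change of 2.26 ± 0.59 (SE) did not pass over all 6 libraries (adjusted p = 0.064 in limma). TIP3-1 passed without WT replicate 3 (adjusted p = 0.029 in limma), as did 5.58% of all tested genes in the same direction. Its values were known beforehand, so this is not support for a difference. The patterning genes SCR, which acts in radial organisation of the root, and TD1, a receptor gene of meristem size, were also chosen after their values were seen and fell below the filter for testing. SCR was at 0.153, 0.650 and 0.736 FPKM in WT and 0.901, 0.782 and 0.804 FPKM in smk8-ref. TD1 was at 0.0807, 0.346 and 0.528 FPKM in WT and 0.790, 0.760 and 0.616 FPKM in smk8-ref. Both were lowest in WT replicate 1 and highest among WT libraries in WT replicate 3. WT replicate 3 was the highest WT library for 46.1% of all tested genes, which leave out SCR and TD1, so a high WT replicate 3 is common. The share that also had WT replicate 1 lowest was not counted. WOX3A, a homeobox gene of leaf margins, was likewise chosen after its values were seen and fell below the filter for testing. WOX3A was at 0, 0.524 and 0.178 FPKM in WT and 0.123, 0.232 and 0.391 FPKM in smk8-ref. The part of these genes in the OBAP difference was not tested.

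The summed FPKM of the 3 OBAP genes was 20.6, 25.4 and 67.0 in WT replicates 1 to 3 and 87.9, 58.1 and 76.1 in smk8-ref replicates 1 to 3. The sum in WT replicate 3 exceeded that in smk8-ref replicate 2.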
